A study of Mus musculus with 6 samples.

Results

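The genes described here encode the subunits of the mitochondrial respiratory chain and of ATP synthase. They were taken from a count table of 28822 gene identifiers as all protein-coding genes whose symbol starts with mt-Nd, mt-Co, mt-Cyb, mt-Atp, Nduf, Uqcr, Cox4 to Cox8 or Atp5, together with Sdha, Sdhb, Sdhc and Sdhd. The cytochrome b gene, which the annotation writes mt-Cytb, was included. This gave 103 genes. Of these, 13 are encoded by mitochondrial DNA (mtDNA) and 90 by the nucleus, the latter made up of 81 subunits, 8 complex I assembly factors of the Ndufaf series and Atp5s, a further factor caught by the Atp5 prefix. A further 11 symbols with these prefixes were not annotated as protein-coding and were left out. All groups shared the same setting: mouse cells in the upper chamber of a Transwell, called bone marrow-derived macrophages (BMDMs) in the title, above HT22 hippocampal neuronal cells exposed to 2 h of oxygen-glucose deprivation. The design text allows BV2 microglia or BMDMs in that chamber. The sample labels read bmdm+ht22, so the sources do not settle which cells went into the libraries. In 3 samples the culture received BW723C86, an agonist of the serotonin receptor 5-HT2B, and in the other 3 its vehicle DMSO. The sources used here give no dose, no length of treatment and no number of separate cultures.

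The respiratory chain passes electrons from NADH (complex I) and succinate (complex II) through coenzyme Q to complex III, cytochrome c and complex IV, and complexes I, III and IV pump protons across the inner mitochondrial membrane. Complex V, ATP synthase, uses the proton gradient to make ATP. Complex II is built from nuclear genes alone, whereas the other complexes combine subunits from both genomes, and mtDNA is copied into long polycistronic RNAs that are cut into separate messengers. In macrophages the balance between respiration and glycolysis is known to differ between activation states.

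Library totals ran from 58841307 to 75931615 estimated counts, with 19034 to 20002 genes detected. Levels below are CPM, the counts divided by TMM-scaled library sizes and set to the same base, and changes are log2 fold changes of BW723C86 over DMSO with their standard error (SE). A gene was said to rise or fall where its Benjamini-Hochberg adjusted p from edgeR's quasi-likelihood test over all 15567 tested genes was below 0.05. By that rule 6534 genes changed, 42.0% of those tested, with 21.3% higher and 20.7% lower, and the median log2 fold change over all tested genes was 0.004. Whether the samples are separate cultures is unknown, so the p-values reflect spread among samples that may be technical replicates. Macrophage markers were abundant in all libraries (summed CPM 37690 to 38550 with DMSO and 33810 to 34890 with BW723C86), most of the sum and of its fall being the lysozyme gene Lyz2 (means of 32870 and 29400 CPM). The 9 markers of neurons and HT22 cells present, of 12 listed, summed to 0.924 CPM or less, with Map2, Nefl, Dcx and Mapt at 0 in every library.

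The mtDNA-encoded messengers fell relative to the nuclear-encoded ones. All 13 mtDNA-encoded messengers fell with BW723C86, with a median log2 fold change of -0.69. With trends of fold change on GC content and length removed, 6813 genes in all changed. The median of the 13 was then -0.25, 8 of them fell and mt-Co1 rose. Among the nuclear-encoded subunits 79 of 81 were expressed enough to be tested, and of these 24 rose, 5 fell and 50 did not pass the test, with a median of 0.08. None of the 8 Ndufaf assembly factors passed in the edgeR fit used throughout (2 at an unadjusted p under 0.05), and 1 passed by DESeq2 and by limma-voom. With GC and length trends removed, 2 of the 8 rose and 1 fell. In all, 42 of the 101 members tested changed (41.6%), with 24 higher and 18 lower, against 42.0% of all tested genes and 47.8% of the 12600 that are protein-coding. The share of tested genes whose CPM did not overlap between groups was 26.3% with BW723C86 higher and 26.0% with BW723C86 lower. All 13 mtDNA-encoded members lay in the second class, and of the nuclear-encoded subunits 28 lay in the first and 8 in the second.

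**Figure D1:**
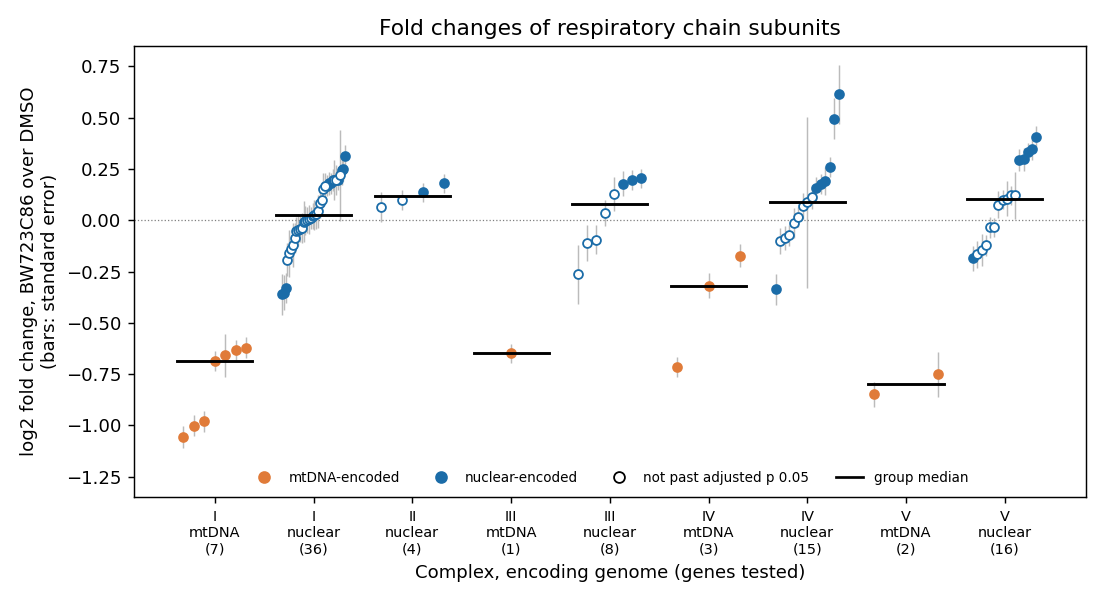
Log2 fold change of each tested subunit (BW723C86 over DMSO, bars are the SE) by complex and encoding genome, with filled points for genes past the adjusted p of 0.05 and black lines for group medians. The mtDNA-encoded genes of complexes I, III, IV and V lie below 0, from -1.06 for mt-Nd4 to -0.17 for mt-Co1, while nuclear-encoded genes lie between -0.36 and 0.62.

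As a share of all counts, the 13 mtDNA-encoded messengers made up 4.39%, 4.36% and 4.42% in DMSO replicates 1 to 3. They made up 2.95%, 3.32% and 2.84% in BW723C86 replicates 1 to 3. The groups did not overlap, and BW723C86 replicate 2 was the nearest to the DMSO libraries. The mean share went from 4.39% ± 0.0266 to 3.03% ± 0.250 (SD, n = 3 per group), a ratio of 0.691. The share of the nuclear-encoded subunits was 0.778%, 0.787% and 0.760% with DMSO and 0.824%, 0.762% and 0.811% with BW723C86, and these ranges overlapped. The count of mtDNA-encoded over nuclear-encoded messengers was thus 5.64, 5.55 and 5.81 with DMSO and 3.58, 4.35 and 3.50 with BW723C86. In bulk RNA, fewer cells of a type that is rich in a messenger and less of that messenger per cell cannot be told apart.

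**Figure D2:**
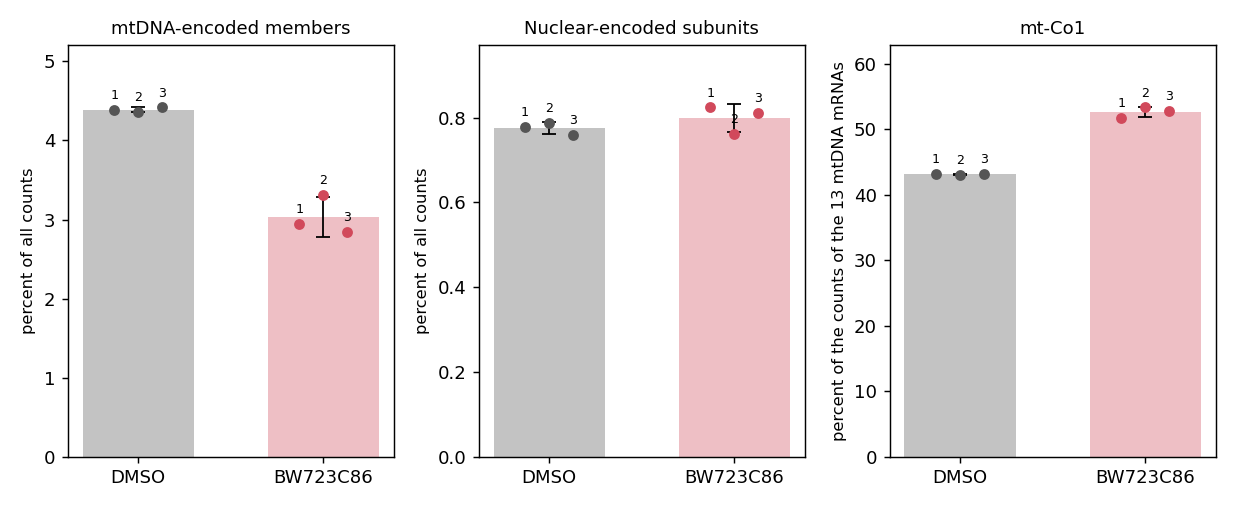
Share of all counts held by the mtDNA-encoded members and by the nuclear-encoded subunits, and share of mt-Co1 among the counts of the 13 mtDNA messengers, in percent. Points are libraries with their replicate number, bars are group means and error bars the SD (n = 3). The mtDNA-encoded share is lower in all 3 BW723C86 libraries (2.84% to 3.32%) than in DMSO (4.36% to 4.42%), the nuclear-encoded share overlaps, and the mt-Co1 share is higher (51.8% to 53.4% against 43.0% to 43.2%).

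Complex I holds 7 mtDNA-encoded subunits, which form most of the proton-pumping membrane arm. The largest fall among all members was that of mt-Nd4 (ENSMUSG00000064363), an antiporter-like subunit of that arm, at 2703, 2676 and 2773 CPM in DMSO replicates 1 to 3 and 1351, 1356 and 1211 CPM with BW723C86 (log2 fold change -1.06, SE 0.05, edgeR adjusted p = 3.59e-09). Each BW723C86 library stood far below the DMSO libraries. mt-Nd1, which helps to form the site where coenzyme Q binds, was at 2813, 2837 and 2850 CPM with DMSO and 1436, 1497 and 1313 CPM with BW723C86 (-1.001, SE 0.05, edgeR adjusted p = 6.43e-09). mt-Nd4l, a small neighbour of mt-Nd4 in mtDNA, fell by 0.98 on the log2 scale, from 336.5 ± 5.52 to 170.5 ± 9.95 CPM. These 3 changed the most of the complex I genes of mtDNA.

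The other 4 mtDNA-encoded complex I genes fell by similar amounts. mt-Nd2 was at -0.62 (SE 0.05), mt-Nd5 at -0.63 (SE 0.05), mt-Nd3 at -0.66 (SE 0.11) and mt-Nd6 at -0.69 (SE 0.05). The calls of mt-Nd3 and mt-Nd6 were lost with GC and length trends removed (-0.01 and -0.08). mt-Nd3 had the lowest CPM of the 13, at 150.4 ± 4.90 CPM with DMSO and 95.4 ± 15.8 CPM with BW723C86. mt-Nd6, the subunit gene that lies on the opposite (light) strand of mtDNA, had values of 961, 941.5 and 955.3 CPM with DMSO and 612.8, 609.7 and 553.1 CPM with BW723C86. Its fall was thus within the range of the heavy-strand genes. Since the use of strand in the counting is not given, reads of mt-Nd6 and of RNA from the strand opposite it cannot be told apart. The complex I messengers of mtDNA together summed to 11760 ± 93.7 CPM with DMSO and 6661 ± 408 CPM with BW723C86.

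mt-Cytb, which encodes cytochrome b and is the sole mtDNA-encoded subunit of complex III, was at 3814, 3749 and 3824 CPM with DMSO and at 2417, 2546 and 2300 CPM with BW723C86 (-0.65, SE 0.05, edgeR adjusted p = 2.1e-07). Of the complex V genes, mt-Atp6, a proton channel subunit, went from 2829 ± 55.4 to 1570 ± 153 CPM (-0.85, SE 0.06, edgeR adjusted p = 2e-07). mt-Atp8, an accessory membrane subunit, went from 818.4 ± 6.69 to 486.5 ± 83.0 CPM (-0.75, SE 0.11, edgeR adjusted p = 0.000906), and BW723C86 replicate 2 was the highest of its group for both genes. Neither gene overlapped between groups, and the call of mt-Atp8 was lost with GC and length trends removed (-0.04).

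These messengers are printed in part to show why some counts cannot be assigned to a single gene. The reading frames of mt-Atp8 and mt-Atp6 share 43 bases and those of mt-Nd4l and mt-Nd4 share 7, as found by matching the end of the upstream to the start of the downstream messenger in GENCODE (release M21, build GRCm38). In the shared stretch of mt-Atp8 and mt-Atp6 the capitals mark the start codon of mt-Atp6. In the junction of mt-Nd4l and mt-Nd4 the capitals mark the shared bases, which hold the start of mt-Nd4 and the stop of mt-Nd4l.
mt-Atp8 and mt-Atp6: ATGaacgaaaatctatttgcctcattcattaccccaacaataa
mt-Nd4l and mt-Nd4: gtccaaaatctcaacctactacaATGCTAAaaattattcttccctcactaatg
Each pair is carried on a shared messenger in the cell, and the members of a pair fell by similar amounts in these data (-0.75 and -0.85 for the first, -0.98 and -1.06 for the second).

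The complex IV messengers of mtDNA were unequal among themselves. mt-Co1, the catalytic subunit that binds the haem and copper centres where oxygen is reduced, was the most abundant member, with 11950 CPM per kilobase of transcript in DMSO. It stood at 18510, 18320 and 18530 CPM with DMSO and 15950, 17840 and 15370 CPM with BW723C86 (-0.17, SE 0.06, edgeR adjusted p = 0.0251). The groups did not overlap, but replicate 2 of BW723C86 came close to the DMSO libraries. The call was lost on leaving out any library other than that one, for example without BW723C86 replicate 3 (-0.14, edgeR adjusted p = 0.107), without replicate 1 (0.0545) or without DMSO replicate 1 (0.0986), 2 (0.0842) or 3 (0.0895). mt-Co2, which takes electrons from cytochrome c, was at 2911, 2859 and 2867 CPM with DMSO and 1811, 1819 and 1636 CPM with BW723C86 (-0.71, SE 0.05, edgeR adjusted p = 1.23e-07). mt-Co3, a structural core subunit, was at 2248, 2279 and 2280 CPM with DMSO and 1721, 2014 and 1724 CPM with BW723C86 (-0.32, SE 0.06, edgeR adjusted p = 0.000771). Of the 13 messengers, mt-Co1 and mt-Co3 thus had the smallest falls.

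The make-up of the mtDNA-encoded pool therefore differed. mt-Co1 held 43.2%, 43.0% and 43.1% of the counts of the 13 messengers with DMSO and 51.8%, 53.4% and 52.9% with BW723C86. mt-Co3 held 5.30% ± 0.0567 and 5.85% ± 0.230. The mean share of each of the other 11 was lower with BW723C86, as for mt-Nd1 (6.62% to 4.55%), mt-Nd4 (6.35% to 4.20%) and mt-Atp6 (6.61% to 5.04%). Without mt-Co1, the other 12 messengers went from 2.50% to 1.43% of all counts, a ratio of 0.574.

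**Figure D3:**
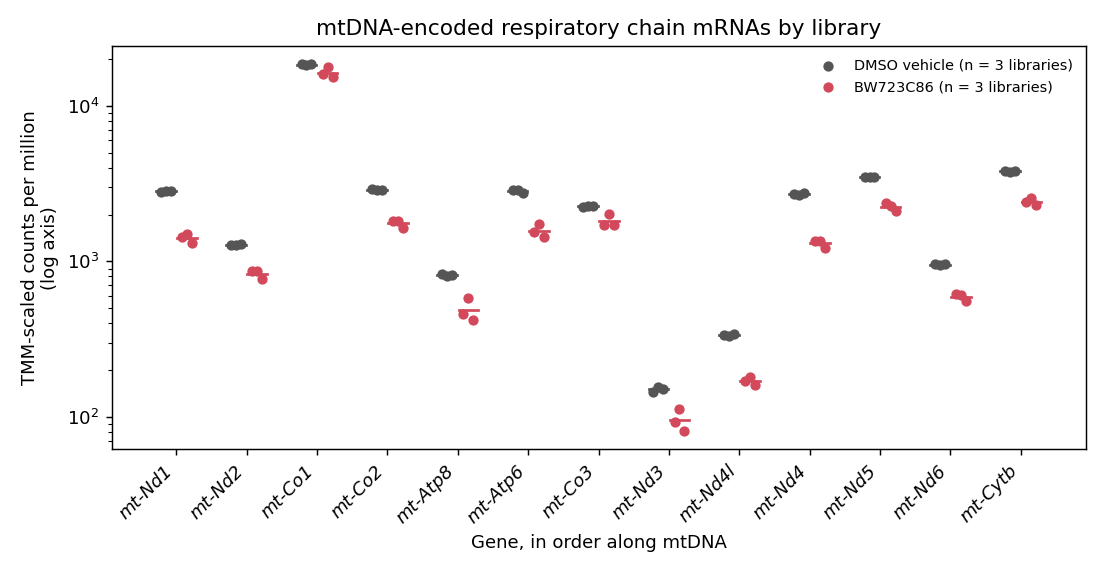
TMM-scaled CPM (log axis) of the 13 mtDNA-encoded messengers in each library, in gene order along mtDNA, with lines at the group means. For every gene the 3 BW723C86 points lie below the 3 DMSO points, narrowly for mt-Co1 (15370 to 17840 against 18320 to 18530 CPM) and by the most for mt-Nd4 (1211 to 1356 against 2676 to 2773 CPM).

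The ribosomal and transfer RNAs of mtDNA, which are not members of the respiratory chain, did not all follow the messengers. The 12S and 16S ribosomal RNAs fell, mt-Rnr1 from 496.7 ± 3.54 to 324.1 ± 21.6 CPM (-0.62, SE 0.05) and mt-Rnr2 from 661.4 ± 33.8 to 406.4 ± 27.9 CPM (-0.70, SE 0.06). Of 22 mitochondrial RNA genes tested, 8 fell and 4 rose. The 4 that rose, mt-Ta, mt-Tn, mt-Tc and mt-Ty, named after their values were seen, encode transfer RNAs that lie together between mt-Nd2 and mt-Co1. mt-Tn was at 7.38, 8.14 and 7.77 CPM with DMSO and 9.96, 11.8 and 9.46 CPM with BW723C86 (0.42, SE 0.11, edgeR adjusted p = 0.00755). mt-Ta rose by 0.42 (SE 0.11), mt-Tc by 0.48 (SE 0.15) and mt-Ty by 0.53 (SE 0.17), without overlap between groups. The transfer RNAs that fell were mt-Te (-0.53), mt-Ti (-1.794), mt-Tl1 (-0.444), mt-Tm (-2.599), mt-Tq (-4.131) and mt-Ts1 (-0.335). Transfer RNAs are shorter than the fragments of such libraries and carry no poly(A) tail, so these low counts are uncertain.

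The mtDNA result moved when trends on GC content and transcript length were removed together. Among tested nuclear genes with a transcript GC content of 35% to 40% the median log2 fold change was -0.29 (732 genes), against -0.14 from 40% to 45% (2734 genes) and 0.08 from 50% to 55% (4008 genes). The 13 mtDNA-encoded transcripts have 31.9% to 41.1% GC and the tested nuclear members 38.4% to 63.3%. For genes of 35% to 40% GC, the median log2 difference from the DMSO mean was -0.33, -0.20 and -0.33 in BW723C86 replicates 1 to 3. Replicate 2 was thus nearest to DMSO in this class. With GC and length trends fitted across all genes and removed, the median of the 13 was -0.25. Then 8 of them fell (mt-Nd1 -0.59, mt-Nd4 -0.58, mt-Nd4l -0.57, mt-Atp6 -0.34, mt-Co2 -0.31, mt-Cytb -0.31, mt-Nd5 -0.25 and mt-Nd2 -0.13). mt-Nd3, mt-Nd6 and mt-Atp8 did not pass (-0.01, -0.08 and -0.04). These 3 have less than 35% GC, where only 34 nuclear genes were tested (middle 50% of log2 fold changes -0.682 to 0.525). The trend removed from them is therefore weakly determined. mt-Co3 turned to 0.06 (edgeR adjusted p = 0.133) and mt-Co1 to 0.11 and higher (edgeR adjusted p = 0.000868). GC content and length were fitted together, so their parts in these shifts cannot be told apart. What part base composition or transcript length had in the fall of the mtDNA messengers was not tested.

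**Figure D4:**
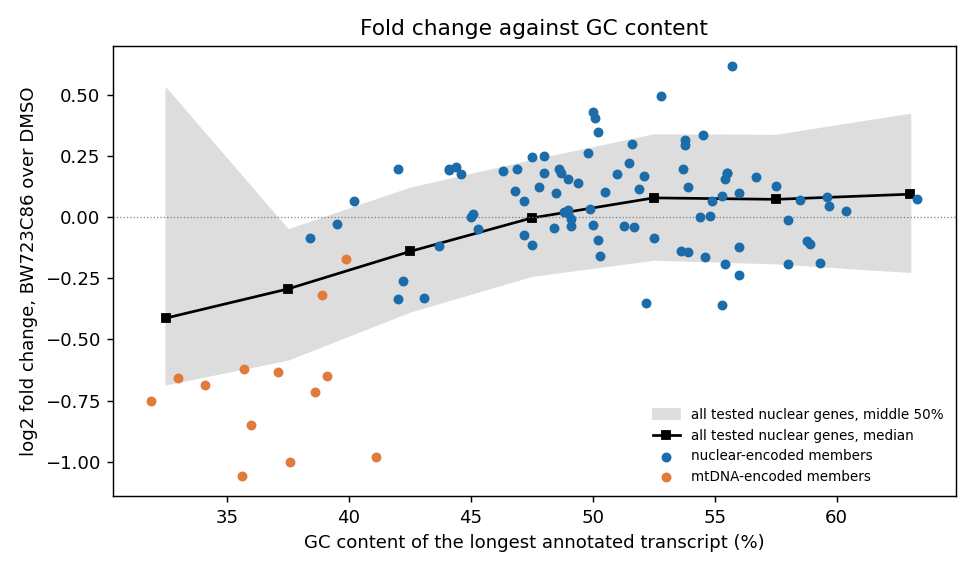
Log2 fold change (BW723C86 over DMSO) against the GC content of the longest annotated transcript, for mtDNA-encoded and nuclear-encoded members as points, with the median (black) and the middle 50% (grey) of all tested nuclear genes by GC class. The median of nuclear genes falls from 0.08 at 50% to 55% GC to -0.29 at 35% to 40%, and mt-Co1 and mt-Co3 lie near it while most other mtDNA-encoded members lie lower.

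Nuclear copies of mtDNA also bear on these counts. A search of GENCODE transcripts for runs of 150 bases shared with the 13 messengers found 8 nuclear pseudogenes, all in the table. Their counts came to 23.8% to 26.6% of those of the mtDNA genes. Copies outside annotated transcripts were not searched for. Of the 13, 7 share such a run. The pseudogenes Gm28661, Gm28437, Gm28438, Gm10222 and Gm10925 had counts close to those of mt-Co2, mt-Co3, mt-Nd3, mt-Nd4l and mt-Atp6 (96.8% to 108% in each library), and Gm28439 and Gm29216 had up to 45.8% of the counts of mt-Nd4 and 7.74% to 8.63% of mt-Co1. The levels of these 7 genes are uncertain, since reads may have been divided between copies. The log2 fold changes of the copies ranged from -0.99 for Gm10222 to -0.28 for Gm29216, and all 8 fell. Over the 6 members without such a run (mt-Nd1, mt-Nd2, mt-Nd5, mt-Nd6, mt-Cytb and mt-Atp8) the median was -0.67.

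Among the 36 nuclear-encoded complex I subunits, 8 rose, 3 fell and 25 did not pass (median 0.02). Genes of the matrix arm were on both sides. Ndufs3, a core subunit of that arm, rose from 41.1, 41.5 and 39.9 CPM to 51.5, 50.1 and 50.7 CPM (0.31, SE 0.05, edgeR adjusted p = 0.000325). Ndufs4, an accessory subunit known from inherited complex I deficiency, was at 26.9, 26.5 and 26.4 CPM with DMSO and 20.6, 22.9 and 19.8 CPM with BW723C86 (-0.33, SE 0.07, edgeR adjusted p = 0.00244). Both genes separated the groups, in opposite directions.

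Ndufa9, which lies where the arms meet, rose by 0.25 (63.1 ± 2.79 to 74.9 ± 3.93 CPM), and the iron-sulphur subunit gene Ndufv2 rose by 0.20 (61.7 ± 2.22 to 70.7 ± 1.67 CPM). The call of Ndufv2 was lost without DMSO replicate 1 (edgeR adjusted p = 0.056) and with library totals alone. Other members that rose included Ndufa1, Ndufa10, Ndufb5 and Ndufb10. The accessory subunit genes Ndufa7 (58.1 ± 2.82 to 45.3 ± 7.26 CPM, -0.36, SE 0.10) and Ndufb4 (32.1 ± 3.47 to 25.2 ± 2.02 CPM, -0.35, SE 0.09) fell. The summed CPM of the 36 overlapped between groups, at 1670 to 1726 with DMSO and 1661 to 1882 with BW723C86. Of the assembly factors, Ndufaf3 had the highest CPM (17.4 ± 1.73 and 14.8 ± 0.815 CPM) and came nearest to the threshold (-0.24, edgeR adjusted p = 0.053). It passed without DMSO replicate 2 (0.0197) and, among other settings, with library totals alone (0.0125) and with GC and length trends removed (0.0181). In that last fit the complex I subunits counted 13 higher and 4 lower.

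Complex II, which also serves the citric acid cycle as succinate dehydrogenase, has no mtDNA-encoded part. Sdha, the flavoprotein that oxidises succinate, was at 183.5, 174.0 and 180.2 CPM with DMSO and 184.2, 202.8 and 188.4 CPM with BW723C86 and did not pass (0.10, SE 0.05, edgeR adjusted p = 0.13). Sdhb, the iron-sulphur subunit, was at 96.2 ± 3.52 and 100.7 ± 12.2 CPM with overlapping groups (0.07, SE 0.07, edgeR adjusted p = 0.515), though it passed without BW723C86 replicate 2 (0.14, edgeR adjusted p = 0.0143). The membrane anchor genes passed. Sdhc went from 114.0, 115.2 and 113.9 CPM to 127.3, 126.1 and 135.3 CPM (0.18, SE 0.05, edgeR adjusted p = 0.00618), and its call was lost without BW723C86 replicate 3 (0.0624). Sdhd went from 177.5, 180.9 and 175.5 CPM to 202.8, 185.4 and 199.1 CPM (0.14, SE 0.05, edgeR adjusted p = 0.0315), and its call was lost on leaving out any library but BW723C86 replicate 2 (edgeR adjusted p = 0.0787 to 0.139). With library totals alone neither Sdhc (edgeR adjusted p = 0.0892) nor Sdhd (0.288) passed, and Sdhd did not pass with no filter beyond a count above 0. The 4 genes summed to 567.8 ± 3.96 and 617.8 ± 14.02 CPM without overlap, a ratio of 1.09. For all tested genes the ratio of summed CPM was 1.05, also without overlap.

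In complex III, 3 of 8 nuclear-encoded subunits rose and none fell by edgeR, at an unadjusted p under 0.05 (0 genes), by DESeq2 or by limma-voom (median 0.08). Uqcrc2, a core subunit gene, went from 106.3, 111.3 and 103.5 CPM to 120.0, 127.1 and 122.6 CPM (0.20, SE 0.05, edgeR adjusted p = 0.00353). Uqcrfs1, encoding the Rieske iron-sulphur protein, went from 108.4, 116.8 and 107.3 CPM to 126.0, 129.1 and 125.9 CPM (0.20, SE 0.05, edgeR adjusted p = 0.00456). Both sets of groups were apart, as were those of Uqcr10, a small subunit gene (0.18, SE 0.06, edgeR adjusted p = 0.0261). The call of Uqcr10 was lost without any library other than BW723C86 replicate 2 (edgeR adjusted p = 0.0562 to 0.128). With library totals alone none of these 3 calls held (edgeR adjusted p = 0.0533 for Uqcrc2, 0.062 for Uqcrfs1 and 0.165 for Uqcr10). Uqcrc1, the core subunit gene with the highest CPM, was at 187.4 ± 6.01 and 204.6 ± 27.8 CPM and overlapped (0.13, edgeR adjusted p = 0.258), but passed without BW723C86 replicate 2 (0.22, edgeR adjusted p = 0.000195).

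Complex IV had 6 nuclear-encoded genes higher, 1 lower and 8 not past of 15 tested (median 0.09). With GC and length trends removed, 10 were higher and 0 lower (median 0.18). Cox7a2l, also called SCAF1 and known for joining complexes III and IV in a supercomplex, was at 390.4, 396.5 and 387.3 CPM with DMSO and 497.1, 440.7 and 468.7 CPM with BW723C86 (0.26, SE 0.05, edgeR adjusted p = 0.000882). All BW723C86 libraries lay above all DMSO libraries. Cox7b, a structural subunit gene, fell from 52.7, 57.7 and 49.9 CPM to 39.5, 46.7 and 40.6 CPM (-0.34, SE 0.08, edgeR adjusted p = 0.00265), and did not pass with GC and length trends removed.

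Several complex IV subunits exist as isoforms from separate genes. Cox4i1, the ubiquitous form, was at 437.3 ± 12.9 and 433.6 ± 51.7 CPM (-0.01, edgeR adjusted p = 0.911), and the form known from lung and hypoxia, Cox4i2, was too low to test in both groups (0.249 CPM or less in each library). Cox6a1, the liver form, had 188.9 ± 7.46 CPM with DMSO and 176.4 ± 16.8 CPM with BW723C86 and stayed short of the threshold (-0.10, edgeR adjusted p = 0.239). It fell past the threshold without BW723C86 replicate 1 (-0.17, edgeR adjusted p = 0.028). Its muscle counterpart Cox6a2 rose from 12.1, 11.3 and 10.5 CPM to 16.4, 14.04 and 17.3 CPM (0.50, SE 0.10, edgeR adjusted p = 0.00131), without overlap. Per kilobase of transcript Cox6a1 remained the higher in level, at 308.9 against 23.4 CPM with BW723C86.

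The isoforms of Cox6b both rose. Cox6b1 went from 102.6 ± 3.74 to 116.0 ± 6.04 CPM (0.18, SE 0.05, edgeR adjusted p = 0.0141), a call lost without DMSO replicate 1 (0.0538) or 3 (0.0885) or BW723C86 replicate 1 (0.0502) or 3 (0.0504). The Cox6b1 call was also lost with library totals alone. Cox6b2, the testis form, went from 4.35, 4.41 and 3.60 CPM to 6.80, 5.49 and 6.64 CPM (0.62, SE 0.14, edgeR adjusted p = 0.00393). It was the sole nuclear-encoded subunit gene past the test that changed by more than 1.5-fold, and it was low. Cox7a1 was at 0.517 and 0.549 CPM and Cox7a2 at 54.3 and 58.7 CPM, and neither passed. Cox7a2 passed as higher with GC and length trends removed (0.18, edgeR adjusted p = 0.00821). Ndufa4, once assigned to complex I and now to complex IV, rose from 24.2 ± 1.34 to 27.6 ± 1.02 CPM (0.19, SE 0.07, edgeR adjusted p = 0.0389). That call was lost without DMSO replicate 2 or 3 or BW723C86 replicate 1 or 3 (edgeR adjusted p = 0.0941 to 0.158). It was also lost with library totals alone and with no filter beyond a count above 0. Ndufa4l2, the hypoxia-induced relative of Ndufa4, was too low to test.

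ATP synthase had the largest ratio of summed CPM among the nuclear-encoded complexes (1.14, against 1.05 to 1.09 in the other 4). The TMM-scaled CPM of all tested genes also summed higher with BW723C86, without overlap (ratio 1.05, and 1.06 for protein-coding genes). Ratios of 1.05 are thus no higher than that of all tested genes. Of its 16 nuclear-encoded genes 5 rose, 1 fell and 10 did not pass (median 0.10). With GC and length trends removed, 9 were higher and 1 lower. Their sum went from 2800, 2825 and 2749 CPM to 3321, 2981 and 3243 CPM. The groups did not overlap in that sum, with BW723C86 replicate 2 the lowest of its group. The catalytic F1 head is a ring of alpha and beta subunits on a stalk of gamma, delta and epsilon. Atp5a1 (alpha) was at 566.0, 572.7 and 565.1 CPM with DMSO and 748.6, 678.8 and 718.4 CPM with BW723C86 (0.33, SE 0.05, edgeR adjusted p = 7.66e-05). Atp5b (beta) was at 753.4, 762.6 and 729.4 CPM with DMSO and 970.4, 841.0 and 946.6 CPM with BW723C86 (0.30, SE 0.06, edgeR adjusted p = 0.000746). Atp5c1 (gamma) was at 179.4, 182.7 and 174.4 CPM with DMSO and 238.8, 211.4 and 232.6 CPM with BW723C86 (0.35, SE 0.05, edgeR adjusted p = 0.000127). In all 3 genes every BW723C86 library was above every DMSO library.

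The small stalk subunits of the head did not share this direction. Atp5d (delta) was at 237.8, 239.0 and 227.9 CPM with DMSO and 222.5, 184.4 and 212.8 CPM with BW723C86 (-0.19, SE 0.06, edgeR adjusted p = 0.0292), a call lost without DMSO replicate 1 (0.0948), 2 (0.106) or 3 (0.0548). Atp5e (epsilon) had a log2 fold change of -0.17 (SE 0.07, edgeR adjusted p = 0.0604) and did not pass. The other genes that rose were Atp5o, whose product joins the head to the outer stalk (0.29, SE 0.05, edgeR adjusted p = 0.00073), and Atp5j2, a membrane subunit gene (53.6 ± 3.02 to 71.0 ± 2.32 CPM, 0.40, SE 0.06, edgeR adjusted p = 7.94e-05). The genes for subunit c of the rotor ring, Atp5g1, Atp5g2 and Atp5g3, were at 59.5 and 64.0, 146.1 and 153.9, and 137.5 and 147.4 CPM and did not reach significance. Atp5g2 (edgeR adjusted p = 0.0111) and Atp5g3 (0.0125) passed as higher without BW723C86 replicate 2, and also with GC and length trends removed (0.00223 and 0.00102). Atpif1, the inhibitor of the reverse reaction, whose symbol falls outside the prefixes, was at 106.7 ± 5.39 and 105.2 ± 9.66 CPM (-0.02, edgeR adjusted p = 0.837).

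**Figure D5:**
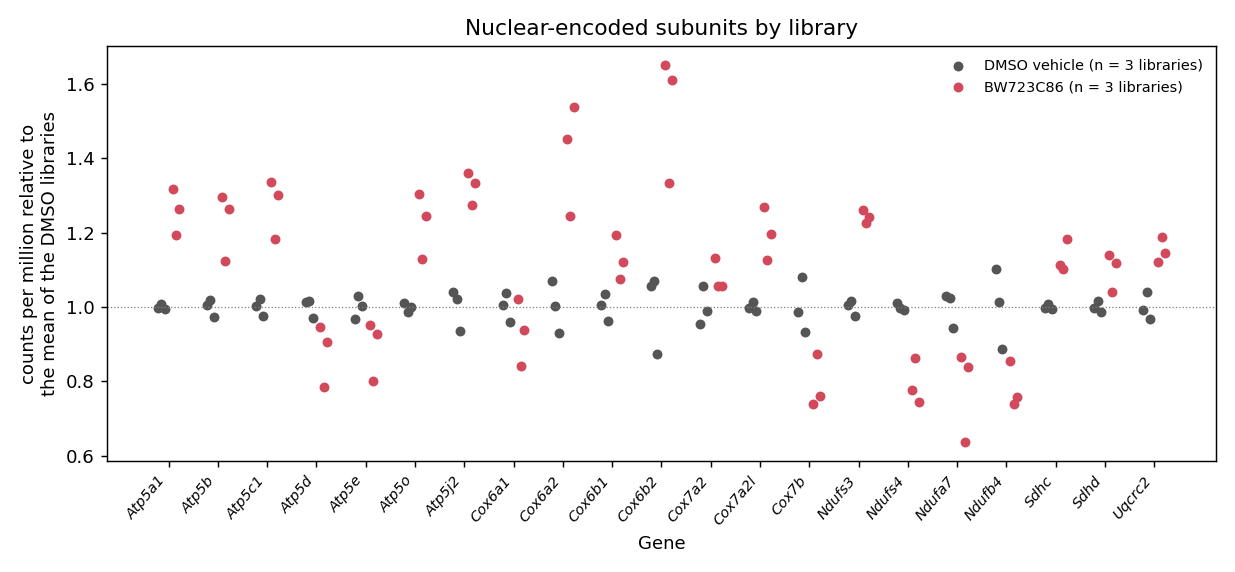
CPM of selected nuclear-encoded subunits in each library relative to the mean of the DMSO libraries (dotted line at 1). The BW723C86 points of Atp5a1, Atp5b, Atp5c1, Atp5o and Atp5j2 lie above the DMSO points and those of Atp5d, Cox7b, Ndufs4, Ndufa7 and Ndufb4 below, with the widest rise for Cox6b2 (4.12 to 6.31 CPM on average).

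The count of nuclear-encoded subunits that rose depended on the scaling and on single libraries. With library totals alone in place of TMM, 10 rose and 13 fell, against 24 and 5. It was 34 without BW723C86 replicate 2, 14 without BW723C86 replicate 3 and 15 without DMSO replicate 1, while the number that fell was 9 without BW723C86 replicate 1 and 8 without replicate 2. The calls of the F1 genes Atp5a1, Atp5b and Atp5c1 and of Atp5j2, Cox7a2l, Cox6a2, Cox6b2 and Ndufs3 held with each library left out and with library totals. When the test asked for more than a 1.2-fold change, 3 nuclear-encoded subunits were higher and 0 lower, whereas 9 were lower at an unadjusted p under 0.05 against no change and 7 by DESeq2. The calls of Atp5a1, Atp5b, Atp5c1, Cox7a2l and Ndufs3 were lost when more than a 1.2-fold change was asked for.

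Nuclear respiratory genes are known targets of NRF1, of the ETS factor GABP and of YY1, and of coactivators of the PGC-1 family. Of 10 such regulator genes tested, 2 rose and 4 fell. Ppargc1b, encoding the coactivator PGC-1 beta, rose from 3.13 ± 0.374 to 6.05 ± 0.835 CPM (0.95, SE 0.16, edgeR adjusted p = 0.000311), and Hcfc1, a coactivator gene, from 118.7 ± 1.35 to 143.6 ± 3.83 CPM (0.28, SE 0.04). Gabpa, the DNA-binding subunit of GABP, fell from 47.1 ± 2.68 to 36.0 ± 1.62 CPM (-0.39, SE 0.06, edgeR adjusted p = 0.000235) and Yy1 from 101.4 ± 2.41 to 85.1 ± 4.24 CPM (-0.25, SE 0.05). Gabpb1 and Nrf1 also fell. These genes thus went in both directions.

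Promoters from RefSeq (build GRCm38.p6, 250 bases before to 50 after the start) matched 74 of the 90 nuclear-encoded members. The NRF1 core TGCGCA, which reads the same on both strands, was in 25.7% of them, against 8.8% of all 27025 genes with such a promoter, expressed here or not. A gene was counted where any of its promoters held the core. CCGGAAG, an ETS core, was in 24.3% against 9.9% on either strand, and AAGATGGC, a YY1 core, in 14.9% against 3.2%. Among the matched members that rose with BW723C86, 4 of 19 held the NRF1 core, and among those that fell 1 of 5. The ETS core was in 3 of the 19 and 0 of the 5, and the YY1 core in 2 of the 19 and 1 of the 5. The 60 bases around the core nearest the start are shown for each member past the test that holds it before its start, to set the same letters in genes that rose beside those in a gene that fell. Capitals mark the core.
Cox5b (rose, chr1:36691408-36691467, + strand): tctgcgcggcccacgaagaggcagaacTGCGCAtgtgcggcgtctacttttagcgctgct
Ndufa9 (rose, chr6:126849168-126849227, - strand): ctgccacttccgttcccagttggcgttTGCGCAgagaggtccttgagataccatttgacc
Sdhd (rose, chr9:50603897-50603956, - strand): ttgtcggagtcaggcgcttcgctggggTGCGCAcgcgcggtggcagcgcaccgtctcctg
Ndufb4 (fell, chr16:37654528-37654587, - strand): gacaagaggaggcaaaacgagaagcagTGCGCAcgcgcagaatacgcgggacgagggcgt
The core begins 52, 56, 80 and 192 bases before the start in these genes in the order given. A match is a description of the letters alone.

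Genes that maintain, transcribe and process mtDNA and its RNA were mostly not past the test. Of 16 maintenance and transcription genes 1 rose and 2 fell. Tfam, which packages mtDNA and starts its transcription, fell from 21.2 ± 1.06 to 17.3 ± 0.916 CPM (-0.29, SE 0.08, edgeR adjusted p = 0.00747), and Polg, the mtDNA polymerase gene, from 38.99 ± 1.06 to 31.3 ± 0.737 CPM (-0.32, SE 0.06, edgeR adjusted p = 0.000626). Twnk, the mtDNA helicase gene, rose from 16.2 ± 0.743 to 21.0 ± 2.04 CPM (0.38, SE 0.09, edgeR adjusted p = 0.00315). Of 17 genes of mitochondrial RNA processing and stability, 2 fell and none rose, nor did any at an unadjusted p under 0.05 or by DESeq2 or limma-voom (0 genes): Trmt10c, a subunit gene of mitochondrial RNase P, which cuts transfer RNAs from the precursor (17.4 ± 0.342 to 12.6 ± 1.70 CPM, -0.46, SE 0.10), and Pnpt1, an RNA-degrading enzyme gene (-0.28, SE 0.09, edgeR adjusted p = 0.0255). The call of Pnpt1 was lost without any DMSO library (edgeR adjusted p = 0.0576 to 0.084), without BW723C86 replicate 1 (0.0704) and with GC and length trends removed.

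Assembly factor genes outside the prefixes also went both ways. For complex I, Tmem126b, which acts in building the membrane arm, fell from 23.7 ± 1.05 to 12.96 ± 1.27 CPM (-0.87, SE 0.09, edgeR adjusted p = 3.76e-06), and of 9 tested 1 rose and 1 fell. Of 10 genes for assembly of complexes II and III, Uqcc3 rose (0.34, SE 0.08) and Uqcc2 (-0.65, SE 0.14) and Sdhaf3 (-0.62, SE 0.19) fell, the call of Sdhaf3 being lost without DMSO replicate 1 (edgeR adjusted p = 0.0561) or 3 (0.0692) or BW723C86 replicate 1 (0.0534) and with GC and length trends removed. Of 23 for complex IV, 3 rose and 2 fell, among them Higd2a (0.36, SE 0.05) and Cox14 (-0.45, SE 0.07). Of 5 for complex V, Tmem242 rose (0.37, SE 0.07) and Tmem70 fell (-0.35, SE 0.07), both known to act in building ATP synthase.

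Among 15 genes of cytochrome c and coenzyme Q, the mobile carriers between complexes, 2 rose and 1 fell. Coq10a, encoding a coenzyme Q-binding protein, rose from 25.7 ± 2.28 to 35.2 ± 2.31 CPM (0.46, SE 0.08, edgeR adjusted p = 0.00036), and Coq3, a methyltransferase gene of its synthesis, fell from 12.98 ± 0.636 to 9.96 ± 0.298 CPM (-0.38, SE 0.09, edgeR adjusted p = 0.00359). Of 21 genes of mitochondrial mass and import 9 rose and 3 fell. Vdac1 and Vdac2, channel genes of the outer membrane, rose from 148.1 ± 2.47 to 187.7 ± 7.27 CPM (0.34, SE 0.05) and from 257.0 ± 3.64 to 300.7 ± 6.24 CPM (0.23, SE 0.04). The chaperonin gene Hspd1 fell from 123.5 ± 3.27 to 108.5 ± 5.17 CPM (-0.19, SE 0.05). Gpd2, the mitochondrial glycerol 3-phosphate dehydrogenase gene, which feeds electrons to coenzyme Q by another route, fell from 35.5 ± 1.11 to 23.7 ± 1.33 CPM (-0.58, SE 0.07, edgeR adjusted p = 1.06e-05).

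Markers of other myeloid cells also changed, in directions that differed by cell type. Of 9 monocyte markers tested 8 fell, with a summed level of 6017 to 6096 CPM with DMSO and 1483 to 1609 CPM with BW723C86. Most of that sum came from Chil3 (means of 3202 and 1105 CPM) and Fn1 (2169 and 243.0 CPM). All 9 neutrophil markers tested fell, with a sum of 2583 to 2659 and 702.7 to 807.2 CPM, most of it from Mmp8, and the granule genes Camp, Mpo and Retnlg were too low to test. Of 7 dendritic cell markers tested 5 rose and none fell, by edgeR, DESeq2 or limma-voom (0 genes also at an unadjusted p under 0.05, sum 509.5 to 521.0 and 2347 to 2501 CPM, most of it Itgax). The dendritic cell markers Xcr1 and Siglech were too low to test. Of 13 macrophage markers 8 rose and 4 fell. BW723C86 replicate 2 had the highest sum of its group for both monocyte and neutrophil markers. That library also stood apart in counts at large. Chi-square per degree of freedom with counts divided by 4 was 8.88 against replicate 1 and 6.09 against replicate 3. Between replicates 1 and 3 it was 2.77. The part of these cell types in the changes of respiratory chain genes was not tested.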

How the data were processed

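Per the labels' protocols, poly(A) RNA of 6 samples was copied into strand-marked paired-end libraries. The authors deposited estimated counts per gene as whole numbers. The tools fastp, HISAT2, StringTie and edgeR and the builds GRCm39 and GRCh38 were used per the submitters' processing notes, with version, role and strand setting not given in the sources used here. Low values pile up at 4 (4613 times, against 2904 for 3), so the fragments behind a count are uncertain.

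Symbols, transcript type, length and GC content for 27005 of 28822 identifiers came from GENCODE M21. Samples were grouped by treatment label. The test was edgeR 4.0.16 (R 4.3.3; quasi-likelihood, robust, TMM, default expression filter by group, two-sided, Benjamini-Hochberg over 15567 genes), checked on simulated counts. Counts differed within each group by more than sampling noise (chi-square per degree of freedom 2.46 to 8.88 with counts divided by 4), so no library was merged. A count of 3 is worth 0.0385 to 0.0523 CPM, for counting error alone. The alternatives tried were DESeq2 1.42.0, limma-voom (limma 3.58.1), other scalings and filters, counts divided by 4, GC and length offsets, a replicate block, a fold threshold and each library left out. The members and gene lists were chosen with earlier results of these data known. Genes named were all mtDNA-encoded and Sdh genes, up to 3 of smallest p per direction and the highest-level gene in each nuclear group, isoforms, and up to 2 per direction of each further list. Exceptions chosen after their values were seen were Atp5o, Atp5e, Cox5b, Gabpb1, Nrf1, Chil3, Mmp8, Ndufa1, Ndufa10, Ndufb5, Ndufb10, the transfer RNAs and the pseudogenes. A result that the rule named is not reported here.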

Additional observations from a re-analysis of the deposited data

How the results depend on the processing

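The labels share replicate numbers, but same-numbered libraries did not deviate together (r = -0.02, -0.11 and 0.03). No pairing by number was thus seen, though so few libraries cannot exclude one. With the replicate block, 6179 genes, 21 members higher and 19 lower were called, and Sdhd and Ndufa4 lost their calls. Against a fold change of 1.2, 3208 of all genes were called, with 3 members higher and 11 lower and, of nuclear-encoded subunits, 3 higher and 0 lower. With library totals alone, 10 members were higher, all of them nuclear-encoded subunits, and 13 such subunits were lower. The medians were then -0.760 for mtDNA-encoded members and 0.000 for nuclear-encoded subunits. The log2 ratio of the summed nuclear CPM was 0.044 (0.119 with TMM, where the sum over all tested genes gave 0.074). With GC and length offsets, 6813 genes in all were called. In that fit 41 members were higher, 38 of them nuclear-encoded subunits, and 8 mtDNA-encoded members lower with a median of -0.25. With the replicate block and these offsets together, 6488 genes were called in all, and 8 mtDNA-encoded members were lower with a median of -0.25. Under the offsets mt-Co1 turned to 0.105, mt-Co3 to 0.057 and the import receptor gene Tomm70a to 0.021, and to 0.105, 0.056 and 0.021 with the block as well. The cause of these differences was not tested.

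Leaving out each library gave 14 to 35 members higher (35 without BW723C86 replicate 2), 16 to 21 lower, 14 to 34 nuclear-encoded subunits higher and 4 to 9 lower, 12 to 13 mtDNA-encoded members lower, and 5387 to 7153 genes in all. The mtDNA median ranged from -0.76 to -0.65, that of nuclear-encoded subunits from 0.011 to 0.115, the log2 ratio of the mtDNA-encoded share from -0.60 to -0.49 (-0.53 with all) and that of the summed nuclear CPM from 0.08 to 0.15. Chosen after seeing the data were the next 3 alternatives. The mtDNA share gave -0.56 with counts of the nuclear copies found added and -0.80 without mt-Co1. The mtDNA median was -0.67 over members that share no 150-base run with an annotated nuclear transcript. Copies that are not annotated may remain among them. The number of fragments behind a count is uncertain, which limits the least expressed members tested, such as Cox7a1 (27 to 40 counts per library).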
